A study of Homo sapiens with 6 samples.

Results

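The endoplasmic reticulum (ER) folding machinery and the unfolded protein response were examined as 40 named genes in NCI-H1975, an established line of non-small cell lung cancer cells of human origin. The genes were taken by symbol from a deposited table of 60960 features, and all 40 were found. They comprise 11 chaperones and co-chaperones, 7 disulfide isomerases and oxidases, 11 genes of ER-associated degradation, 3 genes of the ATF6 and XBP1 arm and 8 genes of the PERK and ATF4 arm. Of the 6 libraries 3 are labelled siNC, for a control siRNA, and 3 siGFPT2, for an siRNA that targets GFPT2, and the series asked which genes differ in expression between these groups. Both groups are the same unmodified line, and the treatment label gives nothing else; the RNA extraction text, shared by all 6, speaks of almonertinib (an EGFR inhibitor), EGF and EGFR knockdown, which no label assigns to a library. Nothing says that the replicates were separate cultures, so p-values cover only the spread among these libraries, and that spread may be technical.

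GFPT2 encodes one of the enzymes that commit fructose-6-phosphate to the hexosamine pathway, whose product UDP-GlcNAc is the building block of the N-glycans added to proteins in the ER. Proteins that enter the ER are folded by chaperones and oxidised by disulfide isomerases, and those that fail are sent back to the cytosol for degradation. When unfolded protein builds up, the sensors ATF6, IRE1 (ERN1) and PERK (EIF2AK3) are released: ATF6 is cut to a transcription factor, IRE1 splices XBP1 mRNA, and PERK phosphorylates eIF2 so that ATF4 is translated. Cleavage, splicing, phosphorylation and translation are not visible in gene-level RNA values, so the levels below are those of total mRNA.

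Depth lay between 21899321 and 27234880 counted fragments per library. The values are FPKM, that is, fragment counts scaled by gene length and by library depth. GFPT2 itself was 10.1, 9.30 and 8.28 FPKM in the siNC libraries and 8.94, 7.58 and 8.72 in the siGFPT2 libraries, so the target overlapped between the groups (log2 fold change -0.13, 95% interval -0.43 to 0.17), and lower GFPT2 was not shown in the libraries labelled siGFPT2. The groups are named by their labels throughout. Of 9 epithelial and lung markers 7 reached 1 FPKM, NKX2-1 among them, while the surfactant processing gene NAPSA and SFTPB stayed under it. The 3 leukocyte and 3 endothelial markers reached at most 0.199 FPKM in any library, and 3 of 4 fibroblast and muscle markers reached 1 FPKM, with COL1A1 the highest at up to 8.23. The libraries siNC replicate 3 and siGFPT2 replicate 2 stood apart from the other 4 in both groups. The slope of a library's deviation on mRNA length was -0.26 and -0.17 log2 units per doubling of length in them, against 0.08 to 0.15 in the others. Deviations are from a gene's mean over all libraries, so slopes in some libraries are balanced by opposite slopes in others.

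Promoters were compared first, for elements through which some of the members are known to be switched on. RefSeq promoter windows (GRCh38.p14, 250 bases before to 50 after a transcript start) were present for 37 members. They were searched on both strands for the ER stress response element bound by ATF6 with NF-Y (ERSE, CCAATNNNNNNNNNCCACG), its second form (ERSE-II, ATTGG and, after 1 base, CCACG), an element of XBP1 and ATF6 (UPRE, TGACGTGG) and the element of ATF4 with C/EBP partners (CARE, TTGCATCA). An exact ERSE was found in 8 of the 37 members, CALR, CANX, CRELD2, ERO1B, HSP90B1, HSPA5, PDIA6 and XBP1, and in 25 of all 27305 genes with a window (0.0916%). ERSE-II was found in HERPUD1, HYOU1 and SDF2L1 and in 19 genes in all (0.0696%), UPRE in DNAJC10, HYOU1 and VCP (0.927% of genes), and CARE in CHAC1, HERPUD1 and PPP1R15B (1.08%). HSP90B1 held an ERSE at 2 places, and HYOU1 held ERSE-II at 2 places, one of which overlaps its UPRE. A match describes letters in a window and does not show binding, and a missing match says only that these letters are not in it. Some members are known for these elements, so a higher share among the members than among all genes is partly built in.

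Of the 11 members with ERSE or ERSE-II, 6 are printed below, 5′ to 3′ on the strand of the gene, to show both forms and both orientations, with the fixed letters of each element in capitals. The opposite orientation appears as CGTGG before ATTGG or CCAAT. HSPA5 lies at chr9:125241381-125241419 (minus strand), CALR at chr19:12938374-12938412 (plus), CRELD2 at chr22:49918544-49918582 (plus), SDF2L1 at chr22:21642104-21642134 (plus), HERPUD1 at chr16:56931956-56932045 (plus) and HYOU1 at chr11:119057264-119057403 (minus). None of these 6 stretches overlaps an exon of GENCODE 29; those of CANX, HSP90B1, PDIA6 and XBP1 do and are not printed, and that of ERO1B, a gene nearly silent here, is also left out. In HERPUD1 the first capitals are the CARE and the second the ERSE-II, and in HYOU1 the first run joins the UPRE and an ERSE-II.
HSPA5: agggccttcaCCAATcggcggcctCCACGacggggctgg
CALR: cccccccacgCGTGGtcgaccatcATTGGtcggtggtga
CRELD2: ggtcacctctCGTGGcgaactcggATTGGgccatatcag
SDF2L1: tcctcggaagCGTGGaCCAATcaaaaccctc
HERPUD1: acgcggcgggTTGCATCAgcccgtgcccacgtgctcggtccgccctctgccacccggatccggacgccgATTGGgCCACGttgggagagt
HYOU1: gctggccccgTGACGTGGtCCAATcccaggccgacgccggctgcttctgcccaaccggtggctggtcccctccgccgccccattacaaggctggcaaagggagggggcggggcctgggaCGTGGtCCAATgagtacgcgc

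**Figure D1:**
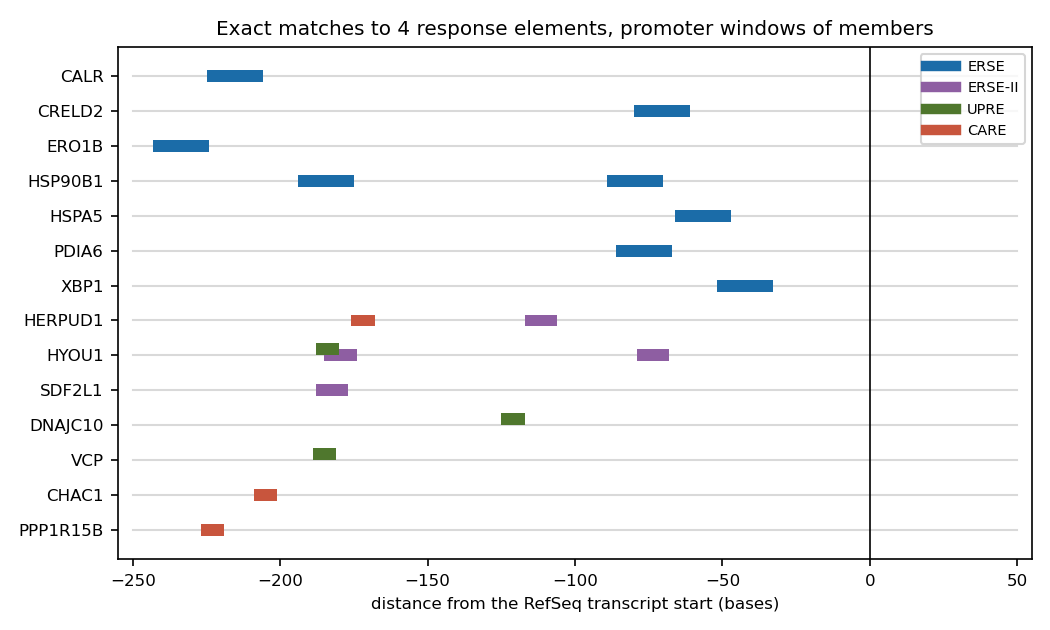
Exact matches to ERSE, ERSE-II, UPRE and CARE in the promoter windows of 14 members, by distance in bases from the RefSeq transcript start; each bar is 1 match, and CANX is left out because its match is repeated in windows of several nearby starts. The ERSE of HSPA5, CRELD2, PDIA6 and XBP1 lies within 90 bases before the start, and those of CALR and ERO1B lie near the far end of the window, with last bases at -207 and -225.

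None of the members differed between siGFPT2 and siNC by limma's test across all features. A mean of at least 1 FPKM was required, which 36 of the 40 members and 12896 features passed. Of the 36, 0 were called higher and 0 lower at an adjusted p of 0.05, where the share called over all features was 0.0%. An unadjusted p under 0.05 was found for 0 members, against 0.651% of all features, and limma-voom on recovered reads also called 0 with 0 at an unadjusted p under 0.05. Since the share over all features was itself so small, 0 of 36 does not set the members apart. With the length slope of each library as a covariate, 4.33% of all features and 1 member reached it. The siGFPT2 libraries lay wholly above or below the siNC libraries for 0 of the 40 members, against 3.53% of all features tested. The median log2 fold change of the members was 0.07, beside 0.03 over all features, and 28 lay above 0 (77.8%, against 61.4% of all features). This difference from all features rested largely on 1 library. Without siNC replicate 1 both medians were 0.03, and 23 members lay above 0 and 13 below. Over all features 7823 then lay above and 5073 below. With the libraries centred on their median feature, the split was 20 above and 16 below (55.6% above, against 44.0% of all features), and the median 0.02, beside -0.02 over all features. In the fit with all 6 libraries and no centring, the 95% interval excluded a 2-fold change for all 36 members (against 92.8% of all features). It excluded a 1.5-fold change for 24 (66.7%, against 61.1% of all features). This bounds the size of any difference in that fit and does not show equal levels. Other fits gave intervals beyond 2-fold: the upper end for EDEM3 was a log2 fold change of 1.02 with a pseudocount of 0.01. It was 1.15 with the replicate block and 1.28 without siNC replicate 1. EDEM3 was not alone, and the lower end passed 2-fold as well. Without siNC replicate 1 the upper end was 1.21 for SEL1L and 1.04 for PPP1R15B, and the lower end -1.11 for DDIT3. Without siNC replicate 2 SEL1L reached 1.16 and DDIT3 -1.05.

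**Figure D2:**
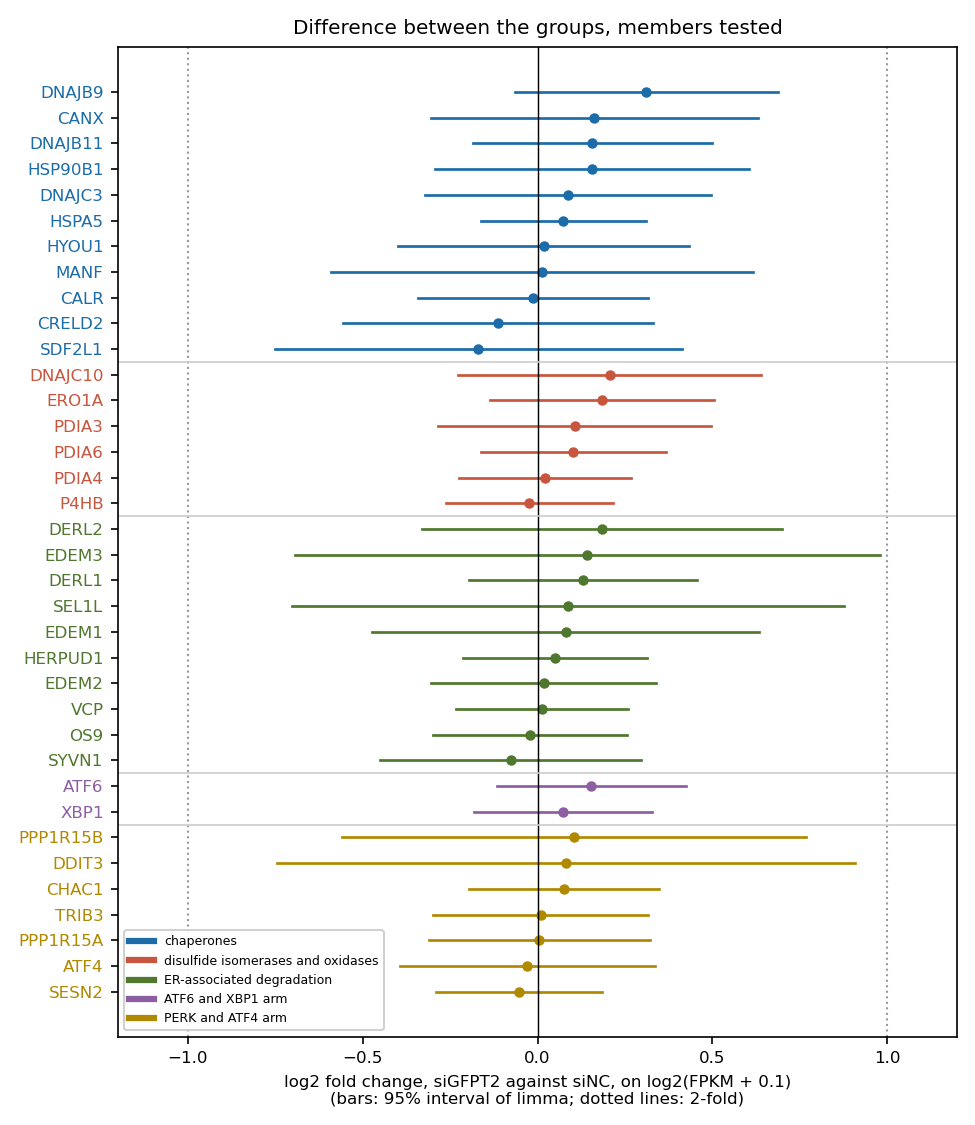
Log2 fold change of siGFPT2 against siNC for the 36 tested members, as points with 95% intervals of limma (n = 3 libraries per group), coloured by subgroup. Each interval includes 0 and lies within the dotted lines at 2-fold, and the widest belong to EDEM3, DDIT3 and SEL1L.

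The chaperones hold and fold new proteins. CALR, calreticulin, a lectin chaperone that binds glucose-tagged N-glycans, was the most abundant member at 371, 361 and 435 FPKM under siNC and 366, 430.0 and 359.9 under siGFPT2. The groups overlapped, with siNC replicate 3 and siGFPT2 replicate 2 highest, and the log2 fold change was -0.01 (95% interval -0.34 to 0.32). HSPA5 (BiP; ENSG00000044574, GENCODE 29 on GRCh38, chr9:125234853-125241330, minus strand), the ER Hsp70 that holds the 3 sensors inactive, was 81.3, 85.4 and 90.8 FPKM under siNC and 88.1, 92.0 and 90.7 under siGFPT2. This narrow range gave a log2 fold change of 0.07 ± 0.10 (SE), with an interval of -0.16 to 0.31. DNAJB9 (ERdj4), a J-domain co-chaperone of HSPA5 that also restrains IRE1, had the smallest unadjusted p of all members and the largest fold change. It was 2.19, 3.08 and 2.36 FPKM under siNC and 3.30, 3.01 and 3.14 under siGFPT2, from 123 to 208 fragments per library. Of the siNC libraries 2 lay below all siGFPT2 libraries and siNC replicate 2 lay among them, and the log2 fold change was 0.31 (-0.07 to 0.69; limma's unadjusted p = 0.0915, adjusted p = 0.9999). An unadjusted p under 0.05 was reached by DNAJB9 without siNC replicate 2 (0.45), where 1.25% of all features reached it, and by HSP90B1 (0.34) and the degradation gene DERL2 (0.42) without siNC replicate 3, where 4.03% did. The library left out was the highest siNC library of each of these genes. Leaving it out raises the fold change and narrows the spread by construction, so no difference can be read from these p-values.

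The remaining chaperones spread over a wide range of levels. SDF2L1, a partner of HSPA5 and its J-domain proteins, was 59.0 ± 17.4 FPKM under siNC and 51.7 ± 10.8 under siGFPT2 (SD, n = 3 each). MANF, a secreted regulator of HSPA5, was 34.5 ± 12.1 and 33.8 ± 5.65. HSP90B1 (GRP94), the ER Hsp90, was 29.9 ± 7.52 and 32.7 ± 2.36, with a log2 fold change of 0.16 (-0.29 to 0.61). CANX, the membrane-bound lectin partner of CALR, was 26.7 ± 5.93 and 29.6 ± 4.37, and HYOU1, a large Hsp70-like exchange factor, was 27.1 ± 5.37 and 27.2 ± 2.74. CRELD2 was 7.46 ± 1.60 and 6.83 ± 1.02, and the J-domain proteins DNAJC3 and DNAJB11 were 5.17 ± 0.816 and 3.84 ± 0.616 under siNC against 5.50 ± 0.875 and 4.25 ± 0.116 under siGFPT2. Of the 11 chaperones 8 had a fold change above 0 and 3 below, with a median of 0.07, and none of these passed the test. The 10 tested members with an ERSE or ERSE-II had log2 fold changes from -0.17 (SDF2L1) to 0.16 (CANX), with 7 above 0.

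The disulfide isomerases form and shuffle disulfide bonds, and the ERO1 oxidases recharge them. PDIA4 was the steadiest of the 40 members, at 222, 219 and 204 FPKM under siNC and 218, 213 and 223 under siGFPT2. Its highest library was 1.09 times its lowest, and its log2 fold change was 0.02 (-0.23 to 0.27). PDIA3 (ERp57), which works on glycoproteins held by CALR and CANX, was 81.2, 98.2 and 122 FPKM under siNC and 101, 114 and 105 under siGFPT2. The siGFPT2 libraries lay inside the siNC range. PDIA3 is uncertain, since the copies PDIA3P1 and PDIA3P2 were listed at 7.68 and 3.42 FPKM and 18.9% of its GENCODE 29 exon bases lie under exons of other genes.

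ERO1A, the main oxidase of most cells, was 11.2, 14.8 and 14.6 FPKM under siNC and 15.6, 14.7 and 15.6 under siGFPT2. Only siNC replicate 1 lay clearly below the others, and the log2 fold change was 0.18 (-0.14 to 0.51), or 0.06 without it. DNAJC10 (ERdj5), a reductase with a J domain that opens disulfides before degradation, was 1.99, 2.39 and 1.65 FPKM under siNC and 2.37, 2.00 and 2.58 under siGFPT2, with overlapping groups and a log2 fold change of 0.21 (-0.23 to 0.64). P4HB (PDI itself) was 60.5 ± 3.39 and 59.4 ± 2.56 FPKM, and PDIA6 was 39.1 ± 3.48 and 41.9 ± 2.20. ERO1B, the second oxidase, was nearly silent at 0.0469 to 0.122 FPKM, from 6 to 16 fragments per library, and was not tested. ERO1A was therefore the one ERO1 gene above 1 FPKM in these cells.

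ER-associated degradation recognises misfolded glycoproteins, passes them through a membrane ubiquitin ligase and pulls them into the cytosol. OS9, a lectin that reads trimmed mannose, was 44.8, 47.4 and 53.7 FPKM under siNC and 46.1, 51.8 and 45.4 under siGFPT2. VCP (p97), the ATPase that extracts the substrates, was 37.0, 32.4 and 37.2 FPKM under siNC and 34.5, 36.9 and 36.0 under siGFPT2. Both overlapped between the groups, with log2 fold changes of -0.02 (-0.30 to 0.25) and 0.01 (-0.23 to 0.26).

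The derlins are membrane proteins of the ligase complex. DERL2 was 3.03, 3.50 and 5.40 FPKM under siNC and 4.18, 4.64 and 4.39 under siGFPT2, with 2 siNC libraries below all siGFPT2 libraries and siNC replicate 3 above them (log2 fold change 0.18, -0.33 to 0.70). Without siNC replicate 3 and siGFPT2 replicate 2 it was 0.38 (0.10 to 0.67; limma's unadjusted p = 0.0155, adjusted p = 0.720), in a fit where 5.82% of all features had an unadjusted p under 0.05. Those 2 were also the highest DERL2 library of each group, so leaving them out narrows the spread by construction. Without siNC replicate 1, the lowest of the 6, the log2 fold change of DERL2 was 0.02 (-0.51 to 0.54). DERL1 was 6.51, 7.62 and 8.88 FPKM under siNC and 8.06, 8.47 and 8.50 under siGFPT2, again within overlapping ranges (0.13, -0.19 to 0.46, and 0.02 without siNC replicate 1). DERL3 stayed between 0.662 and 0.996 FPKM and was not tested; 77.0% of its exon bases in GENCODE 29 lie under those of SMARCB1 on the other strand, so its reads are uncertain.

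The ligase SYVN1 (HRD1) was 18.7 ± 3.29 FPKM under siNC and 17.6 ± 1.44 under siGFPT2, and its partner SEL1L was 10.8 ± 3.76 and 11.3 ± 3.26. SYVN1 shares 10.1% of its GENCODE 29 exon bases with other genes, the abundant FAU among them, and OS9 shares 13.5%. Over 10% was also shared by PDIA6 (25.2%), DNAJB11 (23.2%) and EIF2AK3 (15.1%), so 8 of the 40 members, with PDIA3, DERL3 and DDIT3, are uncertain in this way. HERPUD1, a stress-induced scaffold of the ligase, was 9.96 ± 0.862 and 10.3 ± 0.433. The EDEM proteins trim mannose to mark substrates, and they differed in level: EDEM2, which starts the trimming, was 23.4 ± 3.14 and 23.6 ± 2.10 FPKM, EDEM1 5.23 ± 1.28 and 5.51 ± 1.16, and EDEM3 2.34 ± 0.970 and 2.53 ± 0.748. Of the 10 tested degradation genes 8 had a fold change above 0 and 2 below, with a median of 0.07, and 0 passed the test.

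As deposited, the sensor kinases ERN1 and EIF2AK3 had means under 1 FPKM, and ATF6 and XBP1 lay above it. XBP1, whose spliced form drives chaperone and degradation genes, was 22.3, 23.1 and 25.5 FPKM under siNC and 23.4, 26.5 and 24.7 under siGFPT2, in overlapping ranges (log2 fold change 0.07, -0.18 to 0.33). Spliced and unspliced XBP1 are summed in this value. ATF6 was 3.85, 4.37 and 3.98 FPKM under siNC and 4.59, 4.29 and 4.72 under siGFPT2. Its siGFPT2 libraries lay above the siNC libraries except for siGFPT2 replicate 2, which was below siNC replicate 2 (0.15, -0.12 to 0.42; limma's unadjusted p = 0.217). ERN1 was 0.654, 0.682 and 0.388 FPKM under siNC and 0.575, 0.370 and 0.602 under siGFPT2. EIF2AK3 was 0.832, 1.01 and 0.503 FPKM under siNC and 0.934, 0.587 and 0.873 under siGFPT2. Neither of these kinases passed the filter on the mean, which may depend on the gene length used (described with the levels).

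ATF4 stood high in both groups, and its targets ranged widely. ATF4 (gene ID ENSG00000128272, chr22:39519695-39522685, plus strand) was 110.0, 108 and 139 FPKM under siNC and 107, 134 and 108 under siGFPT2, with siNC replicate 3 and siGFPT2 replicate 2 above the other 4 (log2 fold change -0.03, -0.39 to 0.34). TRIB3, a pseudokinase induced by ATF4 and DDIT3 that feeds back on them, was 73.5, 61.9 and 74.8 FPKM under siNC and 67.5, 78.7 and 65.3 under siGFPT2, in overlapping ranges (0.01, -0.30 to 0.32). CHAC1, which degrades glutathione, was 3.90, 4.25 and 4.22 under siNC and 4.06, 4.65 and 4.35 under siGFPT2 (0.07, -0.20 to 0.35). TRIB3 and CHAC1 are both ATF4 targets, and their mean levels, 70.3 and 4.24 FPKM, lay far apart. ASNS, a further ATF4 target from the list of related genes, was lower still, at 0.267 to 0.727 FPKM and 32 to 78 fragments. It was named after its values were seen, and whether its exons lie under those of other genes was not examined. Mean levels in its list ran from 0.426 FPKM (NUPR1) to 161 (SLC7A5).

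PPP1R15A (GADD34) and PPP1R15B (CReP) direct the phosphatase that reverses eIF2 phosphorylation, the first on stress and the second at all times. PPP1R15A was 22.0 ± 1.39 FPKM under siNC and 22.2 ± 3.12 under siGFPT2. PPP1R15B was 8.89, 10.7 and 5.71 FPKM under siNC and 10.3, 6.52 and 10.1 under siGFPT2, with siNC replicate 3 and siGFPT2 replicate 2 below the other 4 (log2 fold change 0.10, -0.56 to 0.77). SESN2, a sestrin that restrains mTORC1, was 9.73 ± 0.433 and 9.38 ± 0.356. DDIT3 (CHOP; ENSG00000175197, chr12:57516588-57521737, minus strand), the factor tied to death under prolonged stress, was 10.6, 11.7 and 24.1 FPKM under siNC and 12.7, 20.9 and 13.3 under siGFPT2. The single high library of each group made its interval one of the widest, at -0.75 to 0.91 around 0.08. Without these 2 libraries DDIT3 was 0.22 (0.01 to 0.44; limma's unadjusted p = 0.0430, adjusted p = 0.720). In that fit 2 of the 36 members and 5.82% of all features had an unadjusted p under 0.05. Leaving out the highest library of each group narrows the spread by construction, so no difference can be read from this p-value. DDIT3 shares 39.6% of its GENCODE 29 exon bases with other genes, MARS1 and MBD6 on the opposite strand among them, and no source used here says whether the counting used strand. Of the 7 tested genes of this arm 5 had a fold change above 0 and 2 below, with a median of 0.01.

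**Figure D3:**
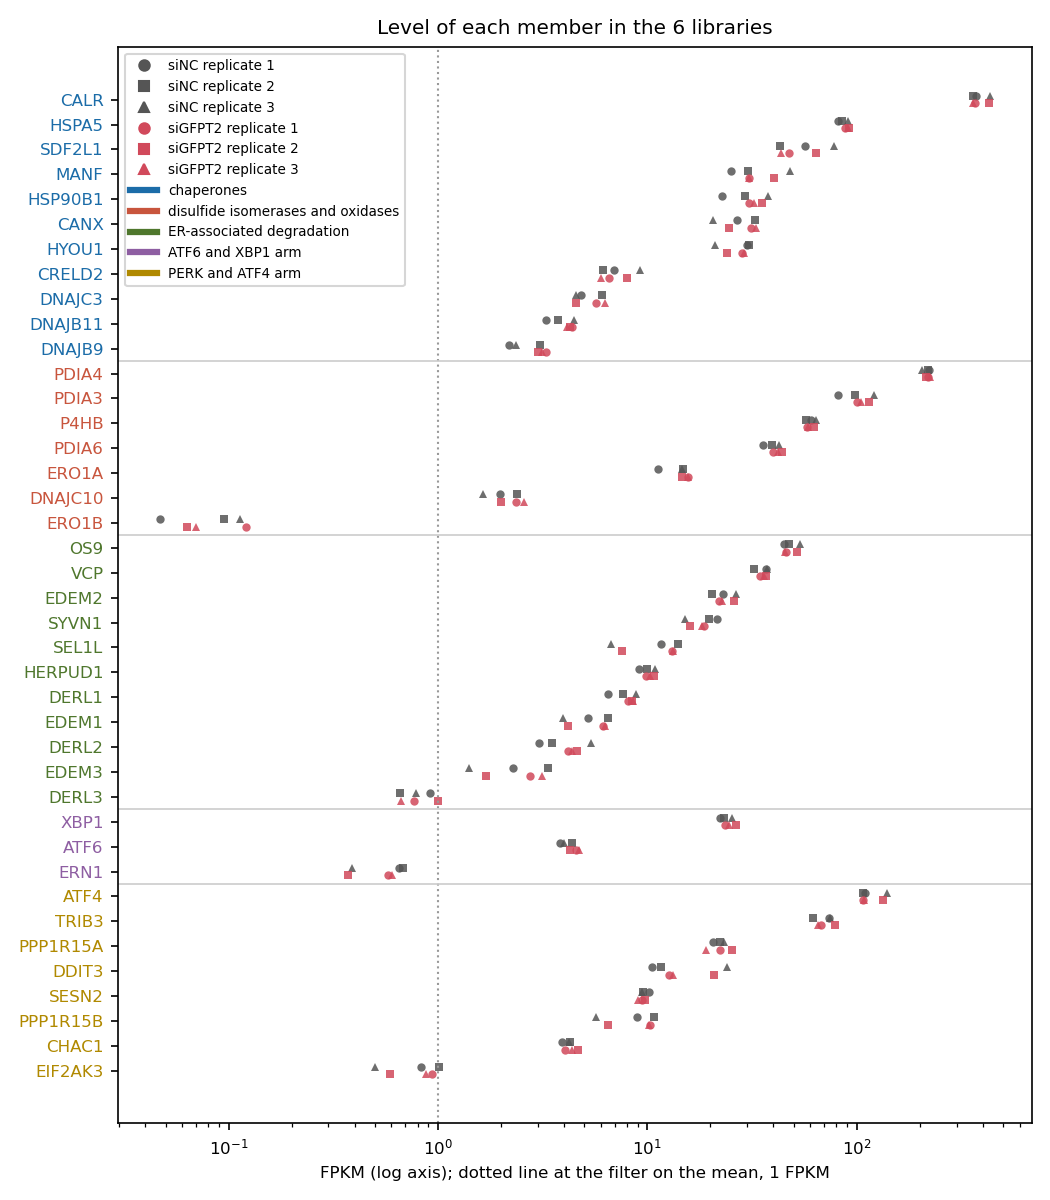
FPKM of the 40 members in each library on a log axis, ordered by mean within subgroup, siNC in grey and siGFPT2 in red, with 1 marker shape per replicate. Members run from ERO1B near 0.1 FPKM to CALR near 387, and in SEL1L, EDEM3, PPP1R15B and DDIT3 siNC replicate 3 and siGFPT2 replicate 2 sit together, away from the other 4 libraries.

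In most tested members siNC replicate 3 and siGFPT2 replicate 2 lay together at 1 end of the 6 libraries. Both lay above the other 4 in 18 of the 36 members and both below in 9, against 29.8% and 35.4% of all features tested. The members above had mRNAs of 865 to 4209 bases (median 2358), taking the longest principal transcript of GENCODE 29, and those below had 2903 to 7925 (median 5227). DDIT3, with an mRNA of 940 bases, was 2.17 times the mean of the other siNC libraries in siNC replicate 3 and 1.61 times the mean of the other siGFPT2 libraries under siGFPT2 replicate 2. SDF2L1 (865 bases) stood at 1.56 and 1.41 times in the same way, and MANF (1153 bases) at 1.74 and 1.32 times. At the other end, SEL1L (7925 bases) was 0.521 and 0.572 times, EDEM3 (6898 bases) 0.4997 and 0.574 times, and PPP1R15B (5227 bases) 0.582 and 0.638 times. These 6 genes were chosen for this description after their values were seen.

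Across the 36 members, Spearman's rho between mRNA length and the deviation from a gene's mean was -0.73 in siNC replicate 3 and -0.83 under siGFPT2 replicate 2. It was 0.18, 0.73, 0.82 and 0.82 in siNC replicates 1 and 2 and siGFPT2 replicates 1 and 3. Over the 10669 tested features with a length it was -0.72 in each of the former, and 0.35, 0.69, 0.65 and 0.58 in the latter. These are correlations across genes that share each library, and genes are not independent replicates. A gene's deviations sum to 0 over the 6 libraries, so negative values in some libraries bring positive values in others by construction. Length did not order every member: DERL2 (4209 bases) and PDIA3 (3727 bases) were 1.65 and 1.36 times higher in siNC replicate 3, while HYOU1 (4529 bases) was 0.693 times and SYVN1 (3144 bases) 0.735 times. In siNC replicate 1 the lowest members were DDIT3, HSP90B1, DERL2 and MANF, which deviated by -0.48, -0.44, -0.43 and -0.41 log2 units. With the length slope of each library as a covariate, limma called 0 members and 1, DNAJB9, had an unadjusted p under 0.05 (log2 fold change 0.30, 0.00 to 0.60; unadjusted p = 0.0489, adjusted p = 0.771), in a fit where 4.33% of all features did. Deviations of all tested features from their group means in siNC replicate 3 correlated with those in siGFPT2 replicate 2 at r = 0.79, across genes that share the libraries. What made the 2 libraries differ was not tested, nor was whether each library carries the right label, on which the direction of every fold change rests.

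**Figure D4:**
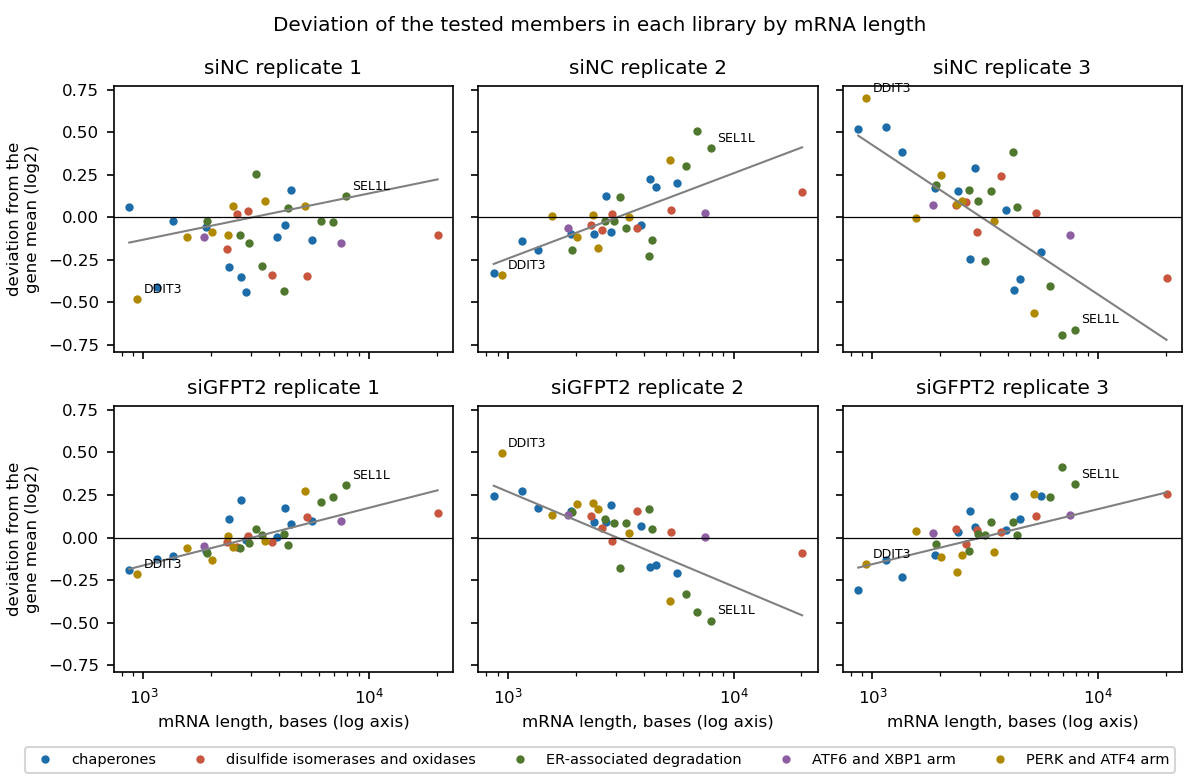
Deviation of the 36 tested members from their mean over the 6 libraries, in log2 units, against mRNA length in bases on a log axis, 1 panel per library; the grey line is the length slope of all tested features. DDIT3, with a short mRNA, lay above 0 and SEL1L, with a long one, below 0 in siNC replicate 3 and siGFPT2 replicate 2, and the reverse held for these genes in the other 4 libraries. A gene's deviations sum to 0, so opposite signs among the libraries are partly built in.

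The order of the members by level depended on the gene length behind each FPKM. That length could be read back from the deposited values together with the fragment counts. For 31 members it lay within 15% of the exon length of GENCODE 29, and for 9 it was 1.64 to 3.81 times as long: ATF6, CANX, DNAJB11, EIF2AK3, ERN1, HSP90B1, HSPA5, P4HB and VCP. As deposited, the 5 most abundant members were CALR (387 FPKM), PDIA4 (217), ATF4 (118), PDIA3 (104) and HSPA5 (88.1). The ranges of ATF4, PDIA3 and HSPA5 over the libraries overlapped from one to the next, and those of CALR and PDIA4 did not overlap any other. With the same fragments over the GENCODE 29 length, HSPA5 was 147 FPKM and the third, P4HB went from 59.96 to 126 and from the seventh place to the fourth, and HSP90B1 from 31.3 to 87.4. On that length EIF2AK3 went from 0.791 to at most 3.01 FPKM, which is over the filter, and ERN1 from 0.545 to at most 0.961, which is under it. For the 9 members these values are upper limits for the GENCODE 29 length alone, since they keep any fragments from bases that only the longer length covers. A shorter length gives higher values. The new places hold only if few fragments came from those bases, which was not tested. Over the mRNA length, which leaves out exons of other transcripts, the order turned again: P4HB was 256 FPKM and the second, above PDIA4 at 246, and HSPA5 was the fifth. On that length ERN1 was 1.33 FPKM and DERL3 3.52, both over 1 FPKM. These values are upper limits for that mRNA length alone, since fragments from exons outside the mRNA are kept. A shorter transcript would give higher values. Of the DERL3 exon bases, 77.0% also lie under those of SMARCB1. EIF2AK3 rested on 255 to 459 fragments per library, and with no filter its log2 fold change was 0.05 (-0.68 to 0.78). Fold changes between the groups use 1 length per gene and do not depend on it except through the filter and the pseudocount.

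**Figure D5:**
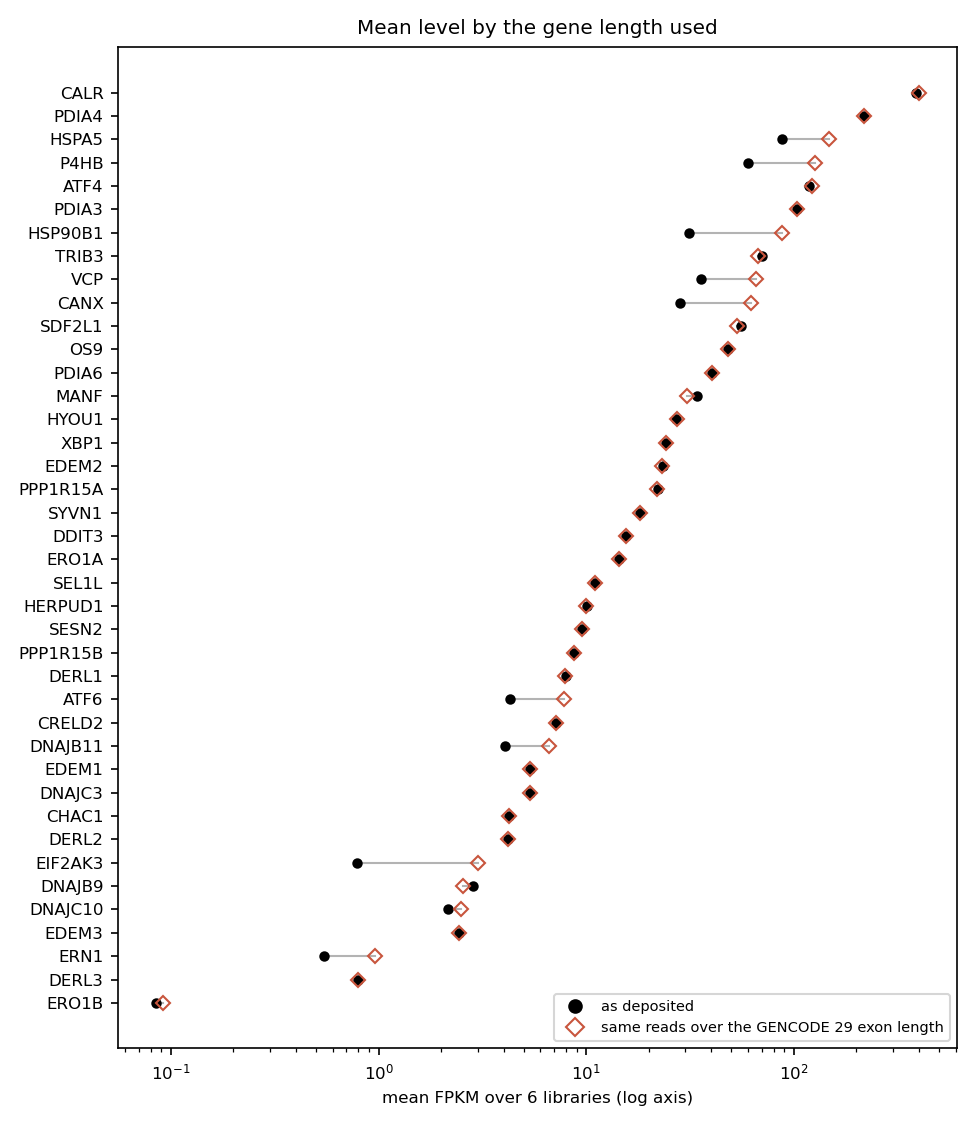
Mean FPKM of the 40 members over the 6 libraries on a log axis, as deposited (dots) and with the same fragments divided by the GENCODE 29 exon length (diamonds), ordered by the latter. The 9 members with a much longer deposited gene length, such as EIF2AK3 (0.791 and 3.01) and HSP90B1 (31.3 and 87.4), are joined by visible lines. Their diamonds are upper limits for that exon length alone, since every fragment is kept, and a shorter length gives higher values.

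The wider machinery gave the same counts. Of 107 related genes of import, folding, degradation and stress signalling 99 were tested, and limma called 0 higher and 0 lower, with 0 at an unadjusted p under 0.05 and 0 by limma-voom at either threshold. Their median log2 fold change was 0.05, with 71 above 0 and 28 below (71.7% above, against 61.4% of all features). With the libraries centred on their median feature, 49 lay above and 50 below (49.5% above, against 44% of all features). Of the 99, 2 had siGFPT2 libraries wholly above the siNC libraries (2.02%, against 2.16% of all features) and 0 wholly below. Translocation and import genes had a median of 0.10 over 16, of which 14 lay above 0. SPCS2, of the signal peptidase, was 9.94 ± 1.60 FPKM under siNC and 11.3 ± 0.703 under siGFPT2 (0.19, -0.16 to 0.54), and SEC63, a J-domain partner of the translocon, had 0.19. Other folding factors had 0.06 as the median over 23, with 0.24 for the thioredoxin-like TMX3 and 0.34 (-0.32 to 1.00) for the J-domain protein DNAJB14. Other degradation factors had a median of 0.06 over 22. Among them the ligase RNF139 was 5.49 ± 0.237 and 6.32 ± 0.329 FPKM, with groups apart (0.20, -0.05 to 0.45; limma's adjusted p = 0.9999). The other gene with groups apart was the ligase RNF185, at 14.1 ± 0.584 and 15.5 ± 0.633 FPKM (0.13, -0.10 to 0.36), named after its values were seen. ERLEC1, a lectin like OS9, had 0.21 (-0.09 to 0.51). Other sensors and processing factors had 0.01 as the median over 16, with 0.16 for CREB3L4 and 0.10 for BFAR. Other eIF2 kinases and ATF4 targets had 0.03 as theirs over 22, with 0.14 for EIF2S1, the eIF2 subunit that the kinases phosphorylate, and 0.19 for EIF2AK2, the kinase that senses double-stranded RNA.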

How the data were processed

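The authors deposited FPKM values in 1 table with 1 column per library. The submitters' processing notes list HISAT2, featureCounts and DESeq2 without versions. Build, annotation and strand setting were not given in the sources used here. Positions and lengths came from GENCODE 29 (GRCh38). Depth and fragment counts were read back from the steps of the FPKM values. Where the GENCODE 29 length gave no whole counts (tolerance 0.0001), the smallest length that did was used. This gave whole counts for 100.0% of 36981 features above 0, of which 53.9% used the GENCODE 29 length, so the share is partly built in.

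Groups were compared with limma 3.58.1 (R 4.3.3) on log2(FPKM + 0.1), a scale that understates changes of low genes. Group was the sole term of lmFit, followed by two-sided eBayes with an intensity trend. Features needed a mean of at least 1 FPKM, and Benjamini-Hochberg adjustment ran over all 12896 of them, with a threshold of 0.05. The scripts were tested on simulated data. The members and lists were chosen with earlier results of these data known. Values per library are given for the 2 most abundant members of each subgroup, that with the smallest unadjusted p and that with the largest fold change; further ones were chosen after their values were seen. Of the related genes, the 2 with the smallest p per list are named. Alternatives changed the pseudocount, filter, scaling, model and libraries. Protein sequences were not used here.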

Additional observations from a re-analysis of the deposited data

How the results depend on the processing

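Over 15 other fits limma or limma-voom called 0 members and 0 features, and the smallest adjusted p of a member was 0.720. The median of the members lay between 0.02 (a minimum mean of 5 FPKM, or median centring) and 0.08 (without siNC replicate 2). Over all features the median was 0.02, -0.02 and 0.06 in these fits, in that order. The fold change kept its sign in every fit for 12 members, 11 of them above 0 (with ATF6, DNAJB9 and ERO1A among them) and SESN2 below. Their sizes still moved with 1 library: without siNC replicate 1, ERO1A was 0.06, DERL1 0.02, DERL2 0.02, DNAJB11 0.05, PDIA6 0.04, HSPA5 0.04, XBP1 0.03, CHAC1 0.04 and SESN2 -0.02, without siNC replicate 3 DNAJC10 was 0.08 and DERL2 0.42, and without siGFPT2 replicate 2 XBP1 and CHAC1 were 0.03. Median centring turned HYOU1 to -0.035, MANF to -0.041, PDIA4 to -0.032, HERPUD1 to -0.0029, EDEM2 to -0.035, VCP to -0.040, PPP1R15A to -0.048 and TRIB3 to -0.043. The length slope as a covariate turned CALR to 0.0025 and HYOU1 to -0.0082. Without siNC replicate 3 and siGFPT2 replicate 2, HYOU1 was -0.072, PDIA4 -0.00035, PPP1R15A -0.054 and TRIB3 -0.022.

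With 1 library left out, 24 members changed sign in at least 1 of 6 fits, with these lowest and highest log2 fold changes: ATF4 -0.14 to 0.088, CALR -0.095 to 0.071, CANX -0.0090 to 0.32, CRELD2 -0.24 to 0.050, DDIT3 -0.15 to 0.45, DNAJC3 -0.013 to 0.21, EDEM1 -0.10 to 0.26, EDEM2 -0.075 to 0.12, EDEM3 -0.17 to 0.43, HERPUD1 -0.013 to 0.11, HSP90B1 -0.023 to 0.34, HYOU1 -0.16 to 0.11, MANF -0.19 to 0.28, OS9 -0.083 to 0.051, P4HB -0.066 to 0.015, PDIA3 -0.036 to 0.25, PDIA4 -0.017 to 0.044, PPP1R15A -0.095 to 0.11, PPP1R15B -0.15 to 0.32, SDF2L1 -0.37 to 0.048, SEL1L -0.22 to 0.35, SYVN1 -0.22 to 0.029, TRIB3 -0.077 to 0.063, VCP -0.051 to 0.047. Unadjusted p under 0.05 occurred for 1 member without siNC replicate 2 (DNAJB9, 0.45), where 1.25% of all features did, for 2 without siNC replicate 3 (DERL2, 0.42, and HSP90B1, 0.34), where 4.03% did, and for 0 in the other fits with 1 library left out. For each of these genes the library left out was its highest siNC library, which favours a small p by construction.

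Replicate numbers are shared by the groups. The correlations of deviations from the group means were 0.47, -0.72 and -0.57 for numbers 1, 2 and 3, and siNC replicate 3 correlated best with siGFPT2 replicate 2 (0.79). The length slopes of those 2 libraries enter all these values, so they cannot decide whether equal numbers mark a shared culture or batch. With the replicate block, 0 members, 0 related genes and 0 features were called, the median of the members was 0.07, and 63 features had an unadjusted p under 0.05 against 84 without it. Depth limits ERO1B, at 6 to 16 fragments, and DERL3, at 55 to 103.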
